A study of Mus musculus with 2 samples.

Results

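Genes that tune Wnt signalling, 6 of the 31253 in the deposited matrices, were matched by symbol and followed across the cells of mouse dorsal root ganglia. They were the R-spondins Rspo1 and Rspo2, the secreted Frizzled-related proteins Frzb and Sfrp5, the R-spondin receptor Lgr5, and the transcription factor Tcf7l2. The members were chosen by their raw UMIs (unique molecular identifiers, each marking 1 captured transcript) per 10000 UMIs across marker-gated neuron types, glia and vascular types of both libraries. Their levels across those types are therefore given as a description with no test. The ganglia came from lumbar levels L4-5 of wild-type mice aged 8 weeks, all given acetone, ether and water on the skin (AEW), which models itch from dryness. AEW is the sole treatment here, so its effect could not be measured, and all comparisons run between cell types. The 2 droplet libraries are called replicates 1 and 2, and the labels do not say that they come from separate animals, so the spread between them may be technical.

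In Wnt signalling a secreted Wnt ligand binds a Frizzled receptor with an Lrp5 or Lrp6 co-receptor, which stabilises beta-catenin so that it enters the nucleus and acts with TCF and LEF factors. R-spondins strengthen the signal: bound to Lgr receptors, they remove the ligases Znrf3 and Rnf43, which otherwise clear Frizzled from the cell surface. Secreted Frizzled-related proteins bind Wnt ligands outside the cell and are mostly known as inhibitors. Sensory ganglia hold neurons wrapped by satellite glia, axons accompanied by myelinating and non-myelinating Schwann cells, and a vascular and connective tissue network.

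The 250 bases before the annotated start are shown for a member highest in satellite glia and NP2 neurons (Rspo1), one highest in satellite glia (Sfrp5) and one shared by glia and vascular cells (Tcf7l2), to let their composition be seen beside their levels. They are RefSeq sequences on GRCm38.p6, at chr4:124986180-124986429 on the forward strand for Rspo1, chr19:42202253-42202502 on the reverse strand for Sfrp5, and chr19:55741560-55741809 on the forward strand for the first of the starts listed for Tcf7l2. Capitals mark matches, on either strand, to a RUNX motif (TGTGGT), a TCF and LEF motif (CTTTGAA or CTTTGAT) or a SOX motif (ACAAAG or ACAATG), so that a reverse-strand SOX match reads CATTGT.
Rspo1: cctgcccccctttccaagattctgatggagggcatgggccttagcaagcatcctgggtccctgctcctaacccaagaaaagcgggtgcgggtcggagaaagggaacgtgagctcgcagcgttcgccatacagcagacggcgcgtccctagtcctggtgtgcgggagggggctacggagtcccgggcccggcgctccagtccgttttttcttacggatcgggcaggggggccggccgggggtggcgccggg
Sfrp5: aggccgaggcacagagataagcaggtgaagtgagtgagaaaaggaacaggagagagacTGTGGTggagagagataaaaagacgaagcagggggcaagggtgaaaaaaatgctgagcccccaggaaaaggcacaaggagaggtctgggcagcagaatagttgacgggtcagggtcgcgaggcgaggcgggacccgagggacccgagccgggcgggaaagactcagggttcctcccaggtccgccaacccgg
Tcf7l2: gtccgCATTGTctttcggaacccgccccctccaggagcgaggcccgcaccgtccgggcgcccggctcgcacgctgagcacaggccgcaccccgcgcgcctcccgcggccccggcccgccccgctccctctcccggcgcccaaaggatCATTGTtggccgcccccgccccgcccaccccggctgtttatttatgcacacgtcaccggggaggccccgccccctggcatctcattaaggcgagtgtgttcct
The RUNX motif was matched 1 time before Sfrp5 and the SOX motif 2 times before Tcf7l2, and no match lay before Rspo1. Of 32851 mouse promoters of the same length, 14.1% held the RUNX motif, 7.48% the TCF and LEF motif and 25.2% the SOX motif. The windows were rich in G and C, at 66.8% before Rspo1, 59.6% before Sfrp5 and 72.8% before Tcf7l2. RefSeq entries were matched for 4 of 6 members, the fourth being Frzb.

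On GRCm38 in GENCODE release M21, all 6 members are protein-coding genes. Rspo1 lies at chr4:124986430-125009099 on the forward strand and Rspo2 at chr15:43020794-43170826 on the reverse strand. Frzb lies at chr2:80411970-80447625, Sfrp5 at chr19:42197971-42202252 and Lgr5 at chr10:115450311-115587780, each on the reverse strand. Tcf7l2 lies at chr19:55741820-55933654 on the forward strand.

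The totals were 113251556 UMIs over 8818 barcodes (replicate 1) and 102347251 UMIs over 11767 barcodes (replicate 2). After filtering 7774 and 10270 cells were kept, with 17 barcodes common to both libraries. Cells were named by the fixed marker list they scored highest on, so each name stands for cells like that type by its markers. The labels call the cells neurons, yet 534 and 805 kept cells passed the neuron gate, with 5.83 and 7.04 Snap25 UMIs per 10000, and satellite glia numbered 1878 and 1941, with 171 and 166 Fabp7 UMIs per 10000. Neuron types were deep, with median depths of 65777 to 165835 UMIs per cell in replicate 1 and 39920 to 89338 in replicate 2. The 3′ UMI counts do not scale with transcript length, and each level below is set beside levels of the same gene only. Values in 2 libraries are given as replicate 1 and replicate 2, and types are called apart where the libraries of one all lie above those of the next.

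Rspo2 was highest in NP1 neurons, the Mrgprd non-peptidergic nociceptors. NP1 neurons held 0.948 and 1.06 Rspo2 UMIs per 10000, from 1877 and 1033 UMIs in 128 and 134 cells, a mean of 1.00 ± 0.0798 (SD, n = 2 libraries). That mean level was 3.51 times the next, in large myelinated (NF) neurons, at 0.256 and 0.316 Rspo2 UMIs per 10000. NF-gated cells also held 0.0474 and 0.265 Mrgprd UMIs per 10000, against 2.44 and 1.71 in NP1. The part of NP1 RNA in the NF level of Rspo2, or in its division by Pvalb below, was not tested. NP1 lay apart from all 8 other neuron types.

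Below NP1, the Rspo2 levels of 4 types ran into each other. They were 0.193 and 0.264 UMIs per 10000 in Kit and Nefh peptidergic (PEP-A) neurons, 0.190 and 0.234 in NP2 neurons, and 0.195 and 0.186 in Th low-threshold touch (TH) neurons, after the NF values above. TRPM8 neurons stood lower, at 0.0945 and 0.0990 Rspo2 UMIs per 10000, and the Tac1 peptidergic (PEP-C) types lower again, at 0.0524 and 0.0501 with Sstr2 and 0.0399 and 0.0446 without it. Nppb neurons (NP3) held 0.0184 and 0.0616 Rspo2 UMIs per 10000, a range that included the level of PEP-C neurons without Sstr2.

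Rspo2 was spread over nearly every NP1 cell and not carried by a few. Of NP1 neurons, 127 of 128 and 129 of 134 held an Rspo2 UMI, and the median cell held 0.913 and 1.01 per 10000, with quartiles of 0.718 and 1.14 in replicate 1 and 0.641 and 1.40 in replicate 2. Thinned to 20000 UMIs a cell, 80.8% of 125 and 86.2% of 123 NP1 cells kept an Rspo2 UMI, against 54.1% and 30.2% of NF cells and 11.1% and 9.47% of PEP-C cells with Sstr2, while 3 and 11 shallower NP1 cells were left out. Thinned to 2000 UMIs, Rspo2 was found in 14.8% and 18.7% of NP1 cells, and in 0 of 98 and 1.59% of 251 erythroid cells, taken as the background of free RNA, where 0 of 98 allows up to 3.06%. Median depths were 165835 and 79363 UMIs in NP1 neurons and 8093 and 1767 UMIs in erythroid cells.

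Within NF neurons, Rspo2 was higher in cells with Pvalb, which marks proprioceptors. NF cells at 0.5 or more Pvalb UMIs per 10000 held 0.448 and 0.429 Rspo2 UMIs per 10000, in 15 and 58 cells. NF cells below that held 0.175 and 0.111 Rspo2 UMIs per 10000, in 23 and 27 cells, so both libraries gave the same order. The cells with Pvalb were shallower, at medians of 97816 and 31793 UMIs against 146009 and 56965. This division was made after the values were seen and has no test.

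Rspo1 was laid out differently: it was highest in NP2 neurons, the Mrgpra3 itch neurons, and lowest in NP1. NP2 neurons held 0.669 and 1.22 Rspo1 UMIs per 10000, from 430 and 385 UMIs in 45 and 52 cells, and NP1 neurons held 0.00455 and 0.0113, from 9 and 11 UMIs. The PEP-C types came next, at 0.450 and 0.363 Rspo1 UMIs per 10000 without Sstr2 and 0.254 and 0.221 with it, and these types, NP2 included, lay apart from each other. PEP-C cells without Sstr2 also carried 3.02 and 3.21 UMIs per 10000 of the fibroblast marker Dcn, against 3.18 and 0.529 in those with Sstr2, and the part of that in the Rspo1 order was not tested.

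In the other neuron types Rspo1 was low and unsteady. NP3 held 0.0399 and 0.154 Rspo1 UMIs per 10000, PEP-A 0.0501 and 0.132, NF 0.0129 and 0.140, TRPM8 0.0602 and 0.0457, and TH 0.0399 and 0.0263. The first 4 of these overlapped, each with the next. NF-gated cells of replicate 2 also held more Nppb (0.469 UMIs per 10000, against 0.00861 in replicate 1), Th (0.334 against 0.0301) and Mrgprd (0.265 against 0.0474), and the part of these in the NF level of Rspo1 was not tested. TRPM8-gated cells held 1.83 and 0.244 Trpm8 UMIs per 10000, so their gate was weak in replicate 2.

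**Figure D1:**
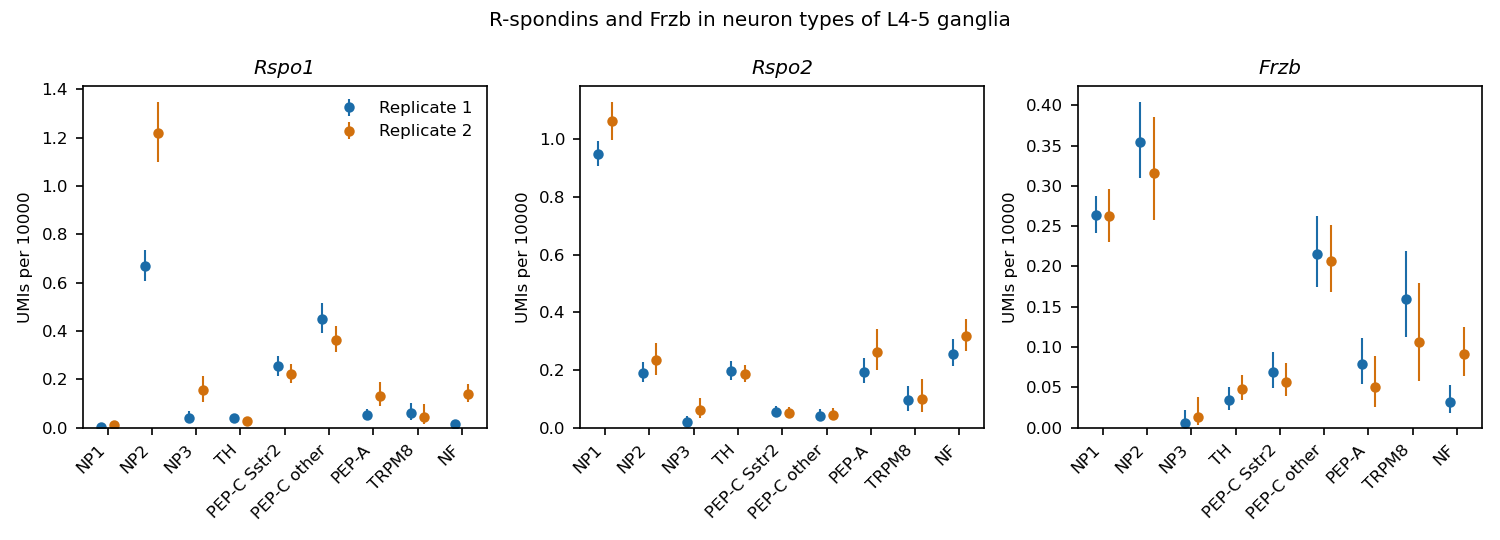
Levels of Rspo1, Rspo2 and Frzb in UMIs per 10000 (vertical axes) in 9 neuron types (horizontal axes). Points are the 2 libraries and bars are exact 95% Poisson intervals for counting error. NP2 is highest for Rspo1 (0.669 and 1.22) and Frzb (0.355 and 0.316), and NP1 for Rspo2 (0.948 and 1.06).

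NP2-gated cells differed among themselves in the levels of these genes. Of NP2 cells, 15 of 45 and 17 of 52 held no Rspo1 UMI at all, while the highest held 29 and 30. NP2 cells at 0.5 or more Mrgpra3 UMIs per 10000 held 0.814 and 1.56 Rspo1 UMIs per 10000 in 32 and 39 cells, and NP2 cells below it held 0.253 and 0.0558 in 13 and 13 cells. Rspo2 ran the other way, at 0.0902 and 0.0819 UMIs per 10000 in the cells with Mrgpra3 and 0.476 and 0.753 in those without. Mrgprd, the NP1 marker, was present in the NP2 gate as a whole, at 0.532 and 0.623 UMIs per 10000. The division at Mrgpra3, itself a marker of the gate, was added after the data were seen. The part of NP1 cells or doublets within the gate in these levels was not tested.

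After thinning to 20000 UMIs, 46.5% of 43 and 71.8% of 39 NP2 cells held Rspo1, against 0.8% and 1.63% of NP1 cells. At that depth Rspo2 was found in 2 of 20 and 5 of 28 NP2 cells with Rspo1, a share of 10% and 17.9%. It was found in 34.8% and 36.4% of NP2 cells without Rspo1. The counts are small, and no test was made over cells.

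**Figure D2:**
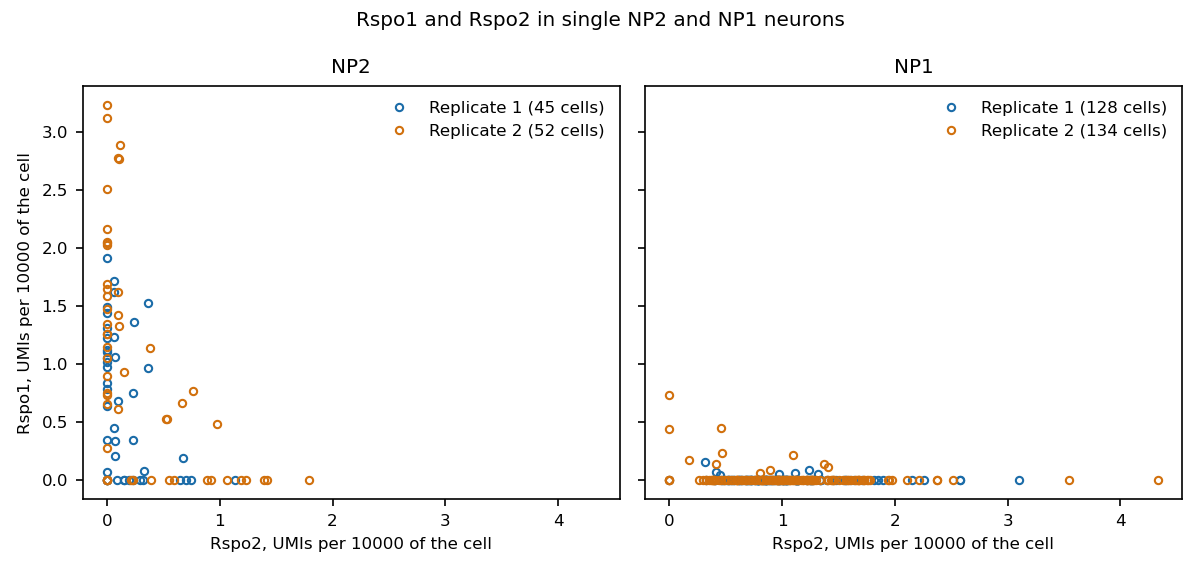
Rspo1 (vertical axis) against Rspo2 (horizontal axis), both in UMIs per 10000 of the cell, in single NP2 and NP1 neurons. Each circle is a cell, coloured by library, and the highest Rspo1 values lie at Rspo2 values near 0. NP1 cells, with medians of 0.913 and 1.01 Rspo2 UMIs per 10000, lie along the horizontal axis.

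Frzb, also called Sfrp3, was highest among neurons in NP2 and next in NP1. NP2 neurons held 0.355 and 0.316 Frzb UMIs per 10000 (0.336 ± 0.0270, SD, n = 2 libraries) and NP1 neurons 0.264 and 0.262. PEP-C neurons without Sstr2 held 0.215 and 0.207, against 0.0693 and 0.0570 in PEP-C neurons with Sstr2, so the groups divided by Sstr2 did not overlap for Frzb. TRPM8 neurons held 0.159 and 0.107 Frzb UMIs per 10000, PEP-A 0.0788 and 0.05, NF 0.0323 and 0.0908, and TH 0.0342 and 0.0480. NP3, the other itch type, was lowest, with 2 and 3 Frzb UMIs in 32 and 38 cells, 0.00614 and 0.0132 per 10000.

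Frzb was found in 55.8% and 48.7% of NP2 cells and in 39.2% and 43.9% of NP1 cells after thinning to 20000 UMIs. In PEP-C cells without Sstr2 the share was 37.2% and 39.1%, and in TH cells 1.85% and 7.52%. Frzb and Rspo2 met in the same NP1 cells: Frzb was found in 37.6% and 45.3% of the NP1 cells with Rspo2, and in 45.8% and 35.3% of those without, an order that differed between the libraries. Thinned to 2000 UMIs, Frzb was found in 3.91% and 6.72% of NP1 cells, 6.67% and 5.77% of NP2 cells, and 1.02% and 1.99% of erythroid cells.

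Frzb was highest of all types in myelinating Schwann cells, which wrap single axons in myelin. They held 0.964 and 0.496 Frzb UMIs per 10000, from 436 and 100 UMIs in 1078 and 657 cells, a mean of 0.730 ± 0.331 (SD, n = 2 libraries). The replicates thus differed by about as much as replicate 2 held in all. Among the other non-neuronal types of the fit fibroblasts were highest, at 0.137 and 0.110 Frzb UMIs per 10000, and non-myelinating Schwann cells held 0.0381 and 0.0655, from 9 and 10 UMIs. Frzb counts were 34.4 and 18.9 per 100 Snap25 UMIs in myelinating Schwann cells, 2.89 and 2.02 in pooled neurons and 12.3 and 8.99 in NP2 neurons, and the part of neuronal RNA in the Schwann level was not tested. In replicate 2 the myelinating gate also held more of the satellite glia marker Fabp7 (11.03 UMIs per 10000, against 1.51 in replicate 1), and the part of this in the library difference was not tested.

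Most myelinating Schwann cells gave no Frzb UMI. None was counted in 816 of 1078 and 571 of 657 cells, and the tenth of cells with most Frzb held 64.7% and 80% of its UMIs. Thinned to 2000 UMIs, 13.1% and 9.19% of myelinating Schwann cells held Frzb, against 0.699% and 1.25% of non-myelinating Schwann cells and 1.02% and 1.99% of erythroid cells. Median depths in these types were 3570 and 2801, 3013 and 2929.5, and 8093 and 1767 UMIs.

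Sfrp5, another secreted Frizzled-related protein, was highest in satellite glia. They held 8.74 and 10.2 Sfrp5 UMIs per 10000 (9.49 ± 1.06, SD, n = 2 libraries), from 14995 and 14943 UMIs. Myelinating Schwann cells held 2.95 and 2.57 and non-myelinating Schwann cells 2.58 and 1.72, ranges that overlapped. Perineurial-gated cells held 3.06 and 6.62 Sfrp5 UMIs per 10000, and also 53.2 and 36.9 of Fabp7 and 70.1 and 62.4 of Dcn, so this gate carried markers of satellite glia and fibroblasts, whose part in the level was not tested. Neuron types held 0.05 to 0.299 Sfrp5 UMIs per 10000, and endothelial cells 0.0969 and 0.188.

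Within satellite glia Sfrp5 was broad, with medians of 7.26 and 8.13 UMIs per 10000 and 237 of 1878 and 277 of 1941 cells at 0. After thinning to 2000 UMIs it was found in 67.1% and 69.2% of satellite glia, 40.2% and 35.7% of myelinating Schwann cells, and 6.12% and 8.76% of erythroid cells, at median depths before thinning of 8570.5 and 7340, 3570 and 2801, and 8093 and 1767 UMIs. For each 100 Fabp7 UMIs, satellite glia held 5.10 and 6.17 of Sfrp5, neurons 6.46 and 5.33, and endothelial cells 7.79 and 3.92. The ratio was 195 and 23.3 in myelinating Schwann cells and 18.1 and 7.12 in non-myelinating Schwann cells, and the part of satellite glia RNA in any of these levels was not tested.

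Lgr5, a receptor for R-spondins best known from intestinal stem cells, was also highest in satellite glia. Satellite glia held 1.04 and 0.993 Lgr5 UMIs per 10000 (1.02 ± 0.0352, SD, n = 2 libraries). Perineurial-gated cells held 0.394 and 0.546, non-myelinating Schwann cells 0.271 and 0.340, and myelinating Schwann cells 0.102 and 0.119, and these 4 levels were apart from each other except that neutrophils (0.173 and 0.206) and B cells (0.183 and 0.190) stood between both Schwann types. The neutrophil gate also held 14.2 and 16.4 Fabp7 UMIs per 10000 and the B cell gate 6.09 and 16.3. The part of satellite glia RNA in their Lgr5 levels was not tested. Neuron types held 0 to 0.0389 Lgr5 UMIs per 10000, and PEP-A of replicate 2 had no Lgr5 UMI. Thinned to 2000 UMIs, Lgr5 was found in 17.9% and 17.7% of satellite glia and 1.02% and 1.20% of erythroid cells.

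Lgr5 and Sfrp5 were found together in satellite glia in shares whose order differed between libraries. At 2000 UMIs Lgr5 was found in 16.7% and 18.2% of satellite glia with Sfrp5, and in 20.2% and 16.5% of those without. Rspo1, however, was found in 6.99% and 7.59% of satellite glia, and Sfrp5 in 79.2% and 82.9% of those with Rspo1, against 66.1% and 68.1% of those without. Per library the order was the same, with no test over cells.

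Outside neurons Rspo1 was highest in satellite glia, at 0.381 and 0.434 UMIs per 10000, from 654 and 634 UMIs. Its mean there was 3.79 times that of the next non-neuronal type of the fit, the perineurial gate at 0.121 and 0.0935. Rspo1 counts were 31.0 and 40.3 per 100 Snap25 UMIs in satellite glia, against 2.89 and 2.81 in pooled neurons and 23.3 and 34.6 in NP2 neurons. Mrgpra3, the NP2 marker, stood at 0.00758 and 0.0199 UMIs per 10000 in satellite glia, against 2.93 and 4.89 in NP2 neurons. The part of neuronal RNA in the satellite glia level of Rspo1 was not tested. Thinned to 2000 UMIs, Rspo1 was found in 0 of 98 and 0.797% of 251 erythroid cells.

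Rspo2 was lower in every non-neuronal type of the fit than in pooled neurons, which held 0.403 and 0.375 UMIs per 10000. Non-myelinating Schwann cells held 0.118 and 0.183, above the levels of TRPM8, both PEP-C types and NP3. The other non-neuronal types of the fit held 0.0112 to 0.139, with satellite glia at 0.0187 and 0.0459. The non-myelinating gate also held 4.32 and 3.42 Snap25 UMIs per 10000, against 5.83 and 7.04 in pooled neurons. Its Rspo2 was 2.74 and 5.36 per 100 Snap25 UMIs, against 6.91 and 5.33 in pooled neurons. The part of neuronal RNA in its level was not tested.

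Tcf7l2, which carries the signal to target genes, was shared by glia and vascular cells and low in neurons. Myelinating Schwann cells held 0.855 and 0.893 Tcf7l2 UMIs per 10000 and satellite glia 0.898 and 0.830, and these overlapped. Endothelial cells held 0.752 and 0.551, perineurial-gated cells 0.637 and 0.499, pericytes 0.560 and 0.555, and fibroblasts 0.486 and 0.522. Non-myelinating Schwann cells held 0.402 and 0.262 Tcf7l2 UMIs per 10000, vascular smooth muscle 0.403 and 0.225, and macrophages 0.298 and 0.215.

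Neuron types held 0 to 0.0307 Tcf7l2 UMIs per 10000, with PEP-A of replicate 2 at 0. Pooled neurons had 0.617 and 0.462 Tcf7l2 UMIs per 100 Fabp7 UMIs, satellite glia 0.525 and 0.501, and endothelial cells 60.5 and 11.5, and the part of satellite glia RNA in the neuronal counts was not tested. At 2000 UMIs Tcf7l2 was found in 16.4% and 17.0% of myelinating Schwann cells, 14.8% and 13.9% of satellite glia, 12.5% and 10.0% of endothelial cells, and in 0 of 98 and 2.79% of 251 erythroid cells.

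**Figure D3:**
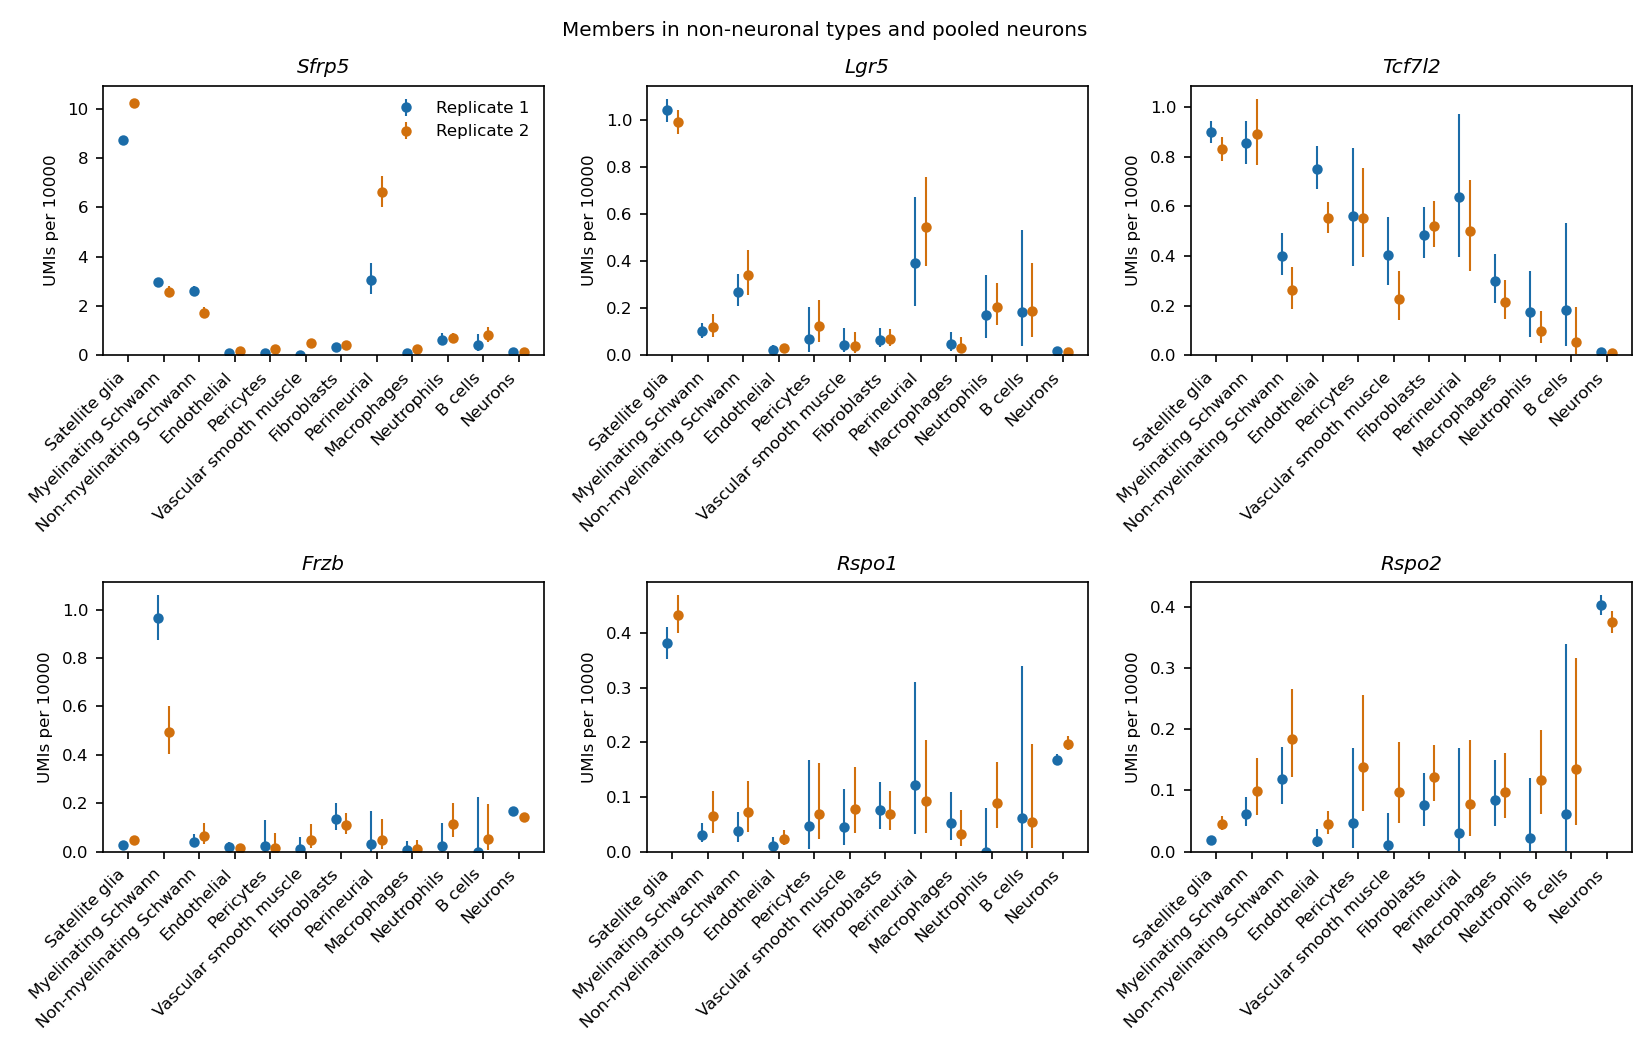
Levels of the 6 genes in UMIs per 10000 (vertical axes) in 11 non-neuronal types and pooled neurons (horizontal axes). Points are the 2 libraries and bars are exact 95% Poisson intervals. Satellite glia are highest for Sfrp5 (8.74 and 10.2), Lgr5 (1.04 and 0.993) and Rspo1 (0.381 and 0.434), and myelinating Schwann cells for Frzb (0.964 and 0.496).

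The genes whose pattern was most like each member were sought over 20 types among 10649 genes at 20 CPM or more (CPM is 100 times the UMIs per 10000), by Pearson's r of log2(CPM + 1). The types share libraries and free RNA, and the values are a description. For Rspo2 they were S100a7l2 (r = 0.88), Nrn1 (0.86), Ppm1j (0.85), Barx2 (0.81) and Limk1 (0.81), of which the first 4 peaked in NP1. For Rspo1 no gene was closer than 0.68, the value of 2610301B20Rik, followed by Dnpep, Agt, Acadvl and Ovol2 at 0.67 to 0.64. For Frzb the closest were Asxl3 (0.74), Cd9, Rab2a, Cuedc2 and Zdhhc8 (0.70), all highest in myelinating Schwann cells.

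Sfrp5 was followed most closely by Pou3f2 (r = 0.98), a POU factor, then Cmtm5, the Wnt and BMP antagonist Sostdc1 and Gpm6b (each 0.97). Lgr5 was followed by Lrrc4b and Metrn (each 0.97), Dbi (0.96), Ednrb and Gpr37l1 (each 0.95), and Ednrb is a marker of the satellite glia gate. Tcf7l2 was followed by Zcchc24 and Slc39a1 (each 0.98), Plin3 and Dock1 (each 0.97) and Ss18 (0.96).

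The rest of the R-spondin system was laid out on both sides of the neuron and glia border. Rspo4, a further R-spondin, was highest in NP2 neurons, at 0.254 and 0.664 UMIs per 10000, ahead of NP1 at 0.162 and 0.328, and PEP-C neurons without Sstr2 at 0.0997 and 0.138. NP2 thus held the highest mean level of both Rspo1 and Rspo4. Rspo4, however, differed by more than 2 times between the libraries, and its ranges in NP2 and NP1 overlapped. Rspo3 was at 0 in 7 of 9 neuron types in both libraries, and was highest in fibroblasts at 0.393 and 0.257, followed by endothelial cells at 0.105 and 0.109.

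Of the receptors, Lgr4 was, like Lgr5, highest in satellite glia, with 1.88 and 1.88 UMIs per 10000, and 0.0831 and 0.0783 in pooled neurons. Lgr6 held 15 and 11 UMIs in pooled neurons and 5 and 4 in satellite glia, too few to order. The ligase Znrf3 was highest in endothelial cells, at 0.403 and 0.238 UMIs per 10000. Its relative Rnf43 held at most 7 UMIs in any type and library.

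**Figure D4:**
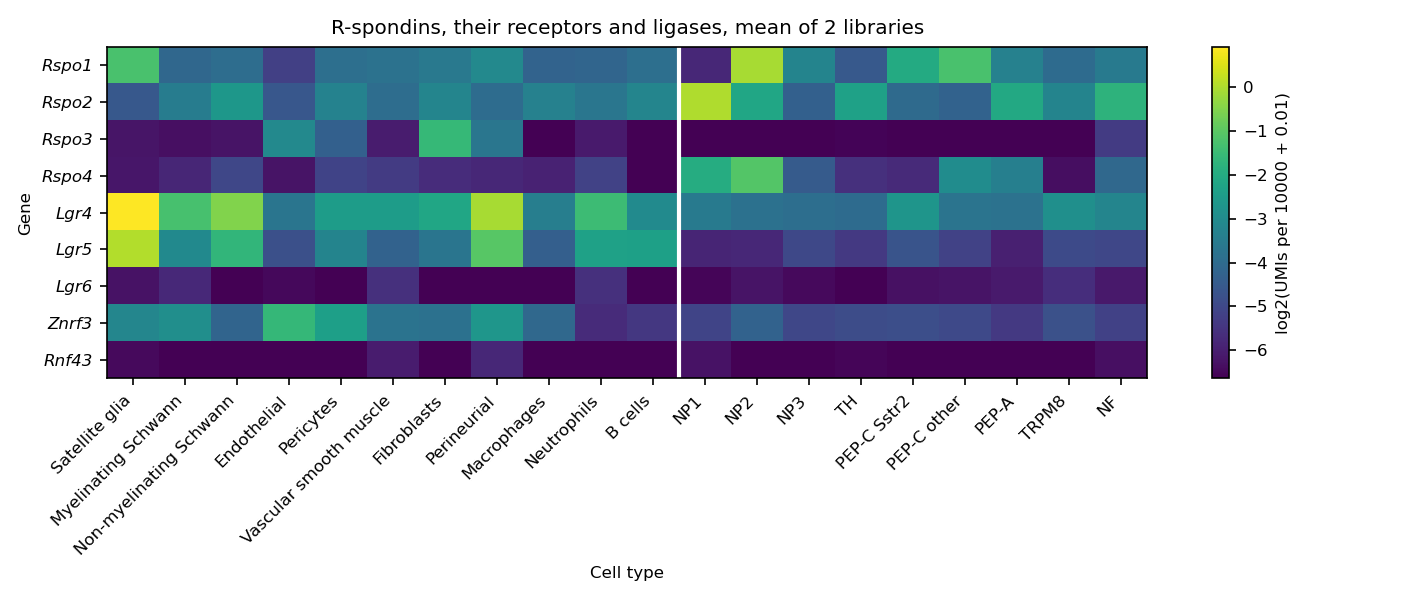
Mean over 2 libraries of log2(UMIs per 10000 + 0.01) (colour) for R-spondins, Lgr receptors and the ligases Znrf3 and Rnf43 (vertical axis) in 11 non-neuronal and 9 neuron types (horizontal axis, divided by a white line). Colours are to be compared within a row. Lgr4 and Lgr5 are brightest in satellite glia (1.88 and 1.88, and 1.04 and 0.993 UMIs per 10000), Rspo2 in NP1 and Rspo1 in NP2.

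Other genes of the pathway, a list of 87 ligands, receptors, inhibitors, transducers and targets without the 6 members, were tested by edgeR's quasi-likelihood test on UMIs summed per type and library, with Benjamini-Hochberg adjustment over all genes and a threshold of 0.05. In this and the following paragraphs CPM is scaled by TMM factors, and where a side holds several types the CPM averages their levels while the fold averages their logs. Satellite glia differed from neurons at 45 of 66 fitted list genes, 32 higher and 13 lower, where 63.4% of all 13394 genes passed, 33.4% higher and 30% lower. The median log2 fold of the list was 0.64, against 0.06 for all genes, and 0.91 with genes at 0 on a side held at 3 counts. The genes so held, Fzd10 and Wif1, had no UMI in satellite glia and fitted log2 folds of -1.40 and -1.85. The floor turns both positive, since fewer UMIs were summed in satellite glia, so 0.91 is not a bound. Medians with this floor in the comparisons below are not bounds either, as sides of unlike depth get the same 3 counts.

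By role, satellite glia were higher at 13 of 19 receptors, 6 of 7 transcription factors and partners and 5 of 10 inhibitors, and lower at 3 of 7 ligands. Sostdc1 averaged 998 and 863 CPM in satellite glia and 11.1 and 10.3 CPM in neurons, a log2 fold of 6.44 ± 0.46 (SE, adjusted p = 7.41e-10). Wnt6, a ligand, averaged 289 and 249.4 CPM in satellite glia and 3.21 and 3.05 in neurons (log2 fold 6.42), and Tcf7l1, a repressor of the TCF family, 56.7 and 63.1 CPM against 1.29 and 0.968 (5.70). The receptor Fzd2 followed at 35.4 and 45.9 CPM against 0.814 and 0.824 (5.59). Lgr4 and Znrf3, the 2 fitted genes of the R-spondin receptor group, were both higher in satellite glia, at log2 folds of 4.79 ± 0.27 and 2.38 ± 0.29.

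Lower in satellite glia were Rspo4, at 0.136 and 0.716 CPM against 10.1 and 15.9 CPM in neurons (log2 fold -5.01, adjusted p = 2.74e-07 by the same test), and Tspan12, a co-receptor for norrin, at 2.72 and 4.54 CPM against 18.34 and 14.998 (-2.20). The kinases Csnk1e and Gsk3b were also lower, at log2 folds of -1.13 and -0.93. Of 4 feedback targets of the pathway 1 passed: Axin2 averaged 12.7 and 12.9 CPM in satellite glia and 4.67 and 2.84 CPM in neurons (1.81 ± 0.33). The log2 folds of the others were 0.58 for Nkd1, -0.12 for Nkd2 and 0.55 for Tnfrsf19.

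**Figure D5:**
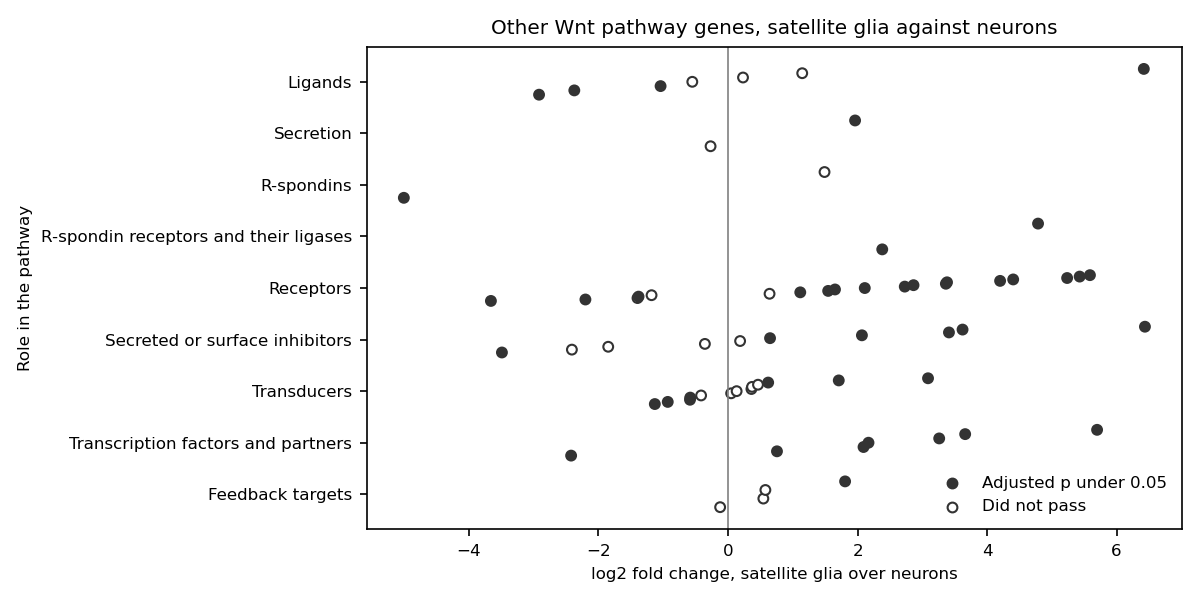
Log2 fold change of 66 other Wnt pathway genes, satellite glia over neurons (horizontal axis), by role (vertical axis). Filled points passed adjusted p under 0.05 in edgeR's quasi-likelihood test and open points did not. Of 19 receptors, 13 were higher in satellite glia and 3 lower.

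Among Schwann cells, 19 of 66 list genes differed, 8 higher and 11 lower in myelinating than in non-myelinating cells, where 26% of all genes passed, 11.4% higher and 14.6% lower. The list's median log2 fold was -0.19, against -0.03 for all genes, and -0.42 with genes at 0 on a side held at 3 counts. Higher in myelinating cells were the receptor Fzd3 (185 and 107 CPM against 44.8 and 45.5 CPM, log2 fold 1.67 ± 0.27, adjusted p = 0.000151, edgeR), the ligase Znrf3 (1.64), the feedback inhibitor Nkd1 (1.50) and the Dkk receptor Kremen1 (1.48). The Znrf3 call did not hold when 1000 genes a cell and a mitochondrial share below 10% were required (adjusted p = 0.109, edgeR; 0.00203 to 0.109 over the alternatives).

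Lower in myelinating Schwann cells were Wnt6 (10.5 and 17.7 CPM against 195 and 155 CPM, log2 fold -3.71), the receptors Fzd7 (-3.24) and Fzd2 (-2.58), and the secreted inhibitor Sfrp1, at 10.2 and 22.9 CPM against 114 and 80.3 CPM (-2.69 ± 0.33). Sfrp1 thus lay on the side opposite to Frzb, whose described levels were 101.4 and 47.7 CPM in myelinating and 3.13 and 5.61 CPM in non-myelinating cells. Tcf7l2 stood at 90.0 and 85.9 CPM in myelinating cells and 33.0 and 22.5 CPM in non-myelinating cells.

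In the vessel wall, 35 of 66 list genes differed between mural cells (pericytes and vascular smooth muscle) and endothelial cells, 16 higher and 19 lower, where 34.9% of all genes passed, 15.1% higher and 19.8% lower. The median log2 fold was 0.27 for the list and -0.08 for all genes, and 0.31 with genes at 0 on a side held at 3 counts. The split of all calls depended on the scaling, with 2017 higher and 2653 lower by edgeR and 2654 and 2276 by DESeq2, whose median over all genes was 0.06. Without replicate 1 the list's median was -0.01.

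Higher in mural cells were Fzd2 (21.03 and 16.02 CPM against 0.796 and 1.38 CPM, log2 fold 3.799), the Wnt protease Trabd2b (3.495), the beta-catenin partner Pygo1 (3.39) and the ligand Wnt5b (3.29). Lower were Lef1, at 0 and 3.23 CPM in mural and 218 and 187 CPM in endothelial cells (-6.79 ± 0.43, adjusted p = 7.02e-10, edgeR), Fzd6 (-6.03), Tcf7 (-3.22) and Rspo3, at 1.03 and 3.16 CPM against 10.88 and 11.99 CPM (-2.96). Endothelial cells thus held the nuclear factors Lef1 and Tcf7 beside Tcf7l2, which stood at 45.7 and 37.7 CPM in mural cells and 78.3 and 60.5 CPM in endothelial cells. Of 4 feedback targets, Axin2 (21.4 and 10.3 CPM against 160 and 62.5 CPM, -2.85) and Tnfrsf19 (-2.40) were lower in mural cells, Nkd2 was higher (1.60), and Nkd1 did not pass (-0.23). The Nkd2 call was lost by a stricter gate (adjusted p = 0.439, edgeR; 0.0173 to 0.439 over the alternatives) and with no filter on low counts (adjusted p = 0.0656).

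Fibroblasts and immune cells (macrophages, neutrophils and B cells) were not among the types that chose the members, so here the members were tested. Of the 6, 2 were higher in fibroblasts, where 31.1% of all genes differed, 19.2% higher and 12% lower. Frzb averaged 13.9 and 11.5 CPM in fibroblasts and 1.22 and 5.66 CPM in immune cells, a log2 fold of 1.93 ± 0.58 (adjusted p = 0.0155 by edgeR's quasi-likelihood test; 0.000564 to 0.0311 over the alternatives). Tcf7l2 averaged 49.6 and 54.7 CPM in fibroblasts and 24.6 and 12.9 CPM in immune cells (1.81 ± 0.26, adjusted p = 1.93e-05). The log2 folds of the other 4 were 0.53 for Rspo1, 0.18 for Rspo2, -0.16 for Sfrp5 and -0.71 for Lgr5, none past the threshold, and Lgr5 passed (-0.88, adjusted p = 0.0197, edgeR; 0.0197 to 0.272 over the alternatives) where doublets were kept. The neutrophil and B cell gates carried Fabp7, as given above, and the part of satellite glia RNA in the Sfrp5 and Lgr5 folds was not tested.

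Of the other 66 list genes, 38 were higher in fibroblasts and none lower by edgeR, at a median log2 fold of 1.76 (1.69 with genes at 0 held at 3 counts), against 0.04 for all genes. At an unadjusted p under 0.05 the counts were 42 higher and 0 lower, and DESeq2 called 36 higher and 0 lower. Sfrp2, a further Frizzled-related protein, had 123 UMIs in fibroblasts and 0 in immune cells, at least 47.5-fold higher when 3 counts over all immune cells are taken as the floor. Rspo3 had 135 UMIs in fibroblasts and 1 in immune cells, a ratio of 156 per UMI sequenced (95% counting interval 27.6 to 6224). Trabd2b had 123 and 2 UMIs (71.3, 19.3 to 595) and the non-canonical receptor Ror1 90 and 2 (52.1, 14.0 to 437). By role, 14 of 19 receptors and 9 of 10 inhibitors were higher in fibroblasts.

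Among neurons, 27 of 56 fitted list genes differed between non-peptidergic (NP1, NP2 and NP3) and peptidergic (both PEP-C types and PEP-A) neurons, 10 higher and 17 lower, where 42.3% of all 13138 genes passed, 20.5% higher and 21.8% lower. The median log2 fold was -0.26, against 0.01 for all genes, and -0.04 without replicate 1. Rspo4 averaged 15.4 and 38.5 CPM in non-peptidergic and 5.67 and 8.68 CPM in peptidergic neurons (1.82 ± 0.31, adjusted p = 0.000122, edgeR). Tspan12 (1.04), the beta-catenin inhibitor Ctnnbip1 (0.77) and beta-catenin itself, Ctnnb1 (261 and 275 CPM against 171 and 189 CPM, 0.55 ± 0.07), were also higher. The first 2 genes were uneven among the non-peptidergic types. Rspo4 stood at 27.0 and 71.7 CPM in NP2. Tspan12 stood at 41.0 and 41.9 CPM in NP1, against non-peptidergic averages of 19.3 and 19.9 CPM. Their folds therefore do not give the level of each non-peptidergic type.

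Lower in non-peptidergic neurons were Ndp, which encodes the Frizzled ligand norrin (9.40 and 14.5 CPM against 11.3 and 26.4 CPM, log2 fold -1.79), Sfrp1 (-1.58), Wls, which carries Wnt ligands to the cell surface (-0.88), and Apc of the beta-catenin destruction complex (-0.31). Ndp was not low in all of them: NP1 held 0.570 and 0.947 CPM, NP2 1.82 and 3.07 CPM, and NP3 25.8 and 39.5 CPM, against 24.8 and 52.7 CPM in PEP-A. The Apc call was lost without the library as a block (adjusted p = 0.185, edgeR; 0.000136 to 0.185 over the alternatives). With neurons low in satellite glia markers, where PEP-A had too few cells and left the comparison, the folds were -0.09 for Sfrp1 (adjusted p = 0.932, edgeR; 3.4e-06 in full) and 0.20 for Ctnnb1 (adjusted p = 0.0657). By a stricter gate Sfrp1 had -0.62 (adjusted p = 0.106, edgeR).

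Large A-fibre NF neurons differed from C-fibre neurons at 21 of 56 list genes, 15 higher and 6 lower, where 41% of all genes passed, 24.4% higher and 16.6% lower. The list's median log2 fold was 0.19, against 0.01 for all genes. Higher in NF neurons were Tspan12 (32.5 and 28.3 CPM against 10.5 and 10.3 CPM, log2 fold 2.54 ± 0.19, adjusted p = 1.17e-08, edgeR), Fzd1 (2.40), Sfrp1 (2.27) and the ligand Wnt5a (1.93). Lower were Fzd3 (-1.22), Csnk1e (-0.90), Lrp6 (-0.64) and Ctnnb1 (-0.38). Some C-fibre types went against these folds. TH lay above NF for Fzd1 (21.7 and 27.1 CPM) and below it for Fzd3 (6.67 and 5.35 CPM). NP1 lay above NF for Tspan12 (41.0 and 41.9 CPM). For Wnt5a, NP1 (11.3 and 17.3 CPM) overlapped NF (10.9 and 11.96 CPM). By mean level NF was the lowest of all 9 types for Csnk1e and Lrp6. The folds therefore do not give the level of each C-fibre type. Without replicate 2 the list's median was -0.04.

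Over all 9 neuron types, 46 of 56 list genes differed by the F test of edgeR's fit, where 75.2% of all genes passed. Tspan12 was highest in NP1 (41.0 and 41.9 CPM) and lowest in PEP-C neurons with Sstr2 (1.38 and 1.18 CPM), so that NP1 held it beside Rspo2. By the mean of the libraries Ndp was highest in PEP-A (24.8 and 52.7 CPM) and lowest in NP1 (0.570 and 0.947 CPM), as was Sfrp1 (26.8 and 28.5 CPM against 1.37 and 1.66 CPM). For Ndp, NP3 (25.8 and 39.5 CPM) and TRPM8 (24.3 and 48.1 CPM) overlapped PEP-A, and TH (0.426 and 1.78 CPM) overlapped NP1. Fzd1 was highest in TH (21.7 and 27.1 CPM), and Fzd3 in NP2 (57.2 and 29.7 CPM). Wls and Nkd1 were highest in TRPM8 neurons, at 70.7 and 65.3 CPM and 28.1 and 33.7 CPM. All 10 ligands fitted passed, against 7 of 13 transducers.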

How the data were processed

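Dissociated L4-5 ganglia were profiled in 2 libraries with the 10x Genomics 3′ v3.1 kit, per the labels' protocols. Each deposited matrix gives raw counts of UMIs for every gene in every barcode, made with Cell Ranger 5.0.1 on mm10 after CASAVA 1.8, per the submitters' processing notes. The deposited feature and barcode files hold identifiers (unit other). Whether intronic reads were counted is not given in the sources used here.

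Filters of 500 or more genes and a mitochondrial share below 20% passed 8329 and 11290 barcodes. Scrublet in scanpy 1.11.5 (seed 1) marked 1 and 0 cells by its own threshold; instead, 555 and 1020 cells with the top scores were left out, a rate of 0.8% per 1000 cells. Each cell was scored by its mean z-score, clipped at 3, of log-scaled UMIs per 10000 over each marker list. A broad type needed a score of 0.5 and a margin of 0.25 over the runner-up, and neurons 10000 UMIs, a score of 0.3 and a margin of 0.2. PEP-C was divided at 0.5 Sstr2 UMIs per 10000. Every named type had at least 3 detected markers. Barcodes left without a type numbered 1309 and 2384, and barcodes that scored as neurons below 10000 UMIs 837 and 805. Some genes are not reported here. The members, marker lists and Wnt list were chosen with earlier results of these data known.

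Levels are UMIs of a gene over all UMIs of a type and library, times 10000, with exact 95% intervals (Poisson for levels, Clopper-Pearson for shares), and intervals and floors of 3 counts cover counting error only. Shares were compared after thinning cells to 2000 or 20000 UMIs. Sums were tested with edgeR 4.0.16 in R 4.3.3 (TMM, filterByExpr, quasi-likelihood test) with type and library as terms, for types with at least 20 cells in each library. The broad fit held 12 types, 24 sums and 13394 genes (11 residual degrees of freedom, common biological coefficient of variation 0.182), and the neuron fit 9 types, 18 sums and 13138 genes (8 and 0.129). The test was checked on simulated data. Named list genes were, per comparison, up to 4 a direction with the largest fold among those passing, of the same sign in each library, and reaching 10 CPM in each on the side where they were higher; for the F test, up to 8 with the smallest adjusted p at 20 CPM or more in the highest type. Lgr4 and Znrf3 in satellite glia, the feedback targets in satellite glia and vessels, and Ndp by type were named after their values were seen. The library term pairs the types, since every type of a number comes from the same library. Alternatives were DESeq2 1.42.0, RLE size factors, no filter on low counts, no library term, a stricter gate, stricter filters on cells, kept doublets, neurons low in satellite glia markers, a mean over cells and each library left out. Other tools were matplotlib 3.10.9, pandas 2.3.3 and scipy 1.17.1 in Python 3.11.15 with numpy 2.4.6.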

Additional observations from a re-analysis of the deposited data

How the results depend on the processing

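All 110 recounts of calls, over the list or over all genes, stayed within 1.5 times the count given, and without the library term (no replicate block) the list counts were 42 of satellite glia against neurons, 16 of Schwann cells, 32 of vessels, 37 of fibroblasts, 23 and 19 of the neuron contrasts and 42 of the F test. List medians kept their sign in 56 of 59 recounts. The exceptions were mural against endothelial cells, at -0.000377 with no filter on low counts and -0.0111 without replicate 1, and NF against C-fibre neurons, at -0.0395 without replicate 2. Leaving out each library in turn, the median ranged from 0.49 to 0.67 for satellite glia, -0.23 to -0.15 for Schwann cells, -0.0111 to 0.30 for vessels, 1.20 to 2.31 for fibroblasts, -0.31 to -0.04 for non-peptidergic neurons and -0.0395 to 0.215 for NF neurons; these have no test, since 1 sum per type leaves no residual degrees of freedom. Of 456 recounts of members and of genes named by the rule above, none changed sign, 6 lost the call and Lgr5 in fibroblasts gained it (-0.88 with doublets kept). The feedback targets in satellite glia and vessels, and Lgr4 and Znrf3 in satellite glia, are not among the 456. Of these feedback targets, Nkd2 in vessels lost its call as given above. Nkd1 in satellite glia gained one with no filter on low counts (log2 fold 0.62, adjusted p = 0.0414, edgeR). Besides those given above, Sfrp1 lost its F test call in neurons low in satellite glia markers (adjusted p = 0.307, edgeR). Frzb in NP2 moved to 0.307 UMIs per 10000 as a mean over cells and to 0.391 in NP2 cells with Mrgpra3. Of 819 recounted member levels 135 moved by more than the SD of 2 libraries. The 819 include levels with a library left out. A single library of 2 cannot lie further from their mean than the SD, so those recounts could not move and say nothing on steadiness. NF against C-fibre neurons was not run with neurons low in satellite glia markers, as NF fell under 20 cells. With 2 libraries, differences under the spread between them are not resolved.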

Other observations

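Cells outside the named types also held the members. Ungated barcodes held 1.89 and 2.08 Sfrp5, 0.448 and 0.560 Lgr5, 0.444 and 0.419 Tcf7l2 and 0.181 and 0.149 Rspo1 UMIs per 10000, in 1309 and 2384 barcodes. Barcodes that scored as neurons below 10000 UMIs held 0.433 and 0.292 Rspo2 and 0.118 and 0.154 Frzb UMIs per 10000. Neurons without a type held 0.356 and 0.165 Rspo1 and 0.270 and 0.464 Rspo2 UMIs per 10000, in 56 and 108 cells.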
